A study of Homo sapiens with 20 samples.

Results

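Transcripts of the WNT ligands, their frizzled receptors and the secreted inhibitors of the SFRP and DKK families were described across 20 established human biliary tract cancer cell lines. The members were every entry of the count table whose RefSeq identifier maps to a symbol of the form WNT with a number, FZD1 to FZD10, SFRP1 to SFRP5 or DKK1 to DKK4. This gave 37 of 24222 entries: 19 ligands, 10 frizzleds and 8 inhibitors, of which 4 are SFRP and 4 are DKK genes. Each line was sequenced once, untreated, as poly(A)-selected RNA in a stranded library, so lines serve as replicates and the spread quoted is that among lines. The lines comprise 7 labelled Gallbladder, 5 labelled Extrahepatic (bile duct), 4 labelled Intrahepatic and 3 labelled Ampullary. OZ, labelled with both bile duct sites, was left out of the site comparisons. The source label is Primary for 13 lines and Metastatic for 7, of which 6 were taken from ascites and 1, Mz-ChA-2, from the liver. All were grown in the same serum-containing medium, a line stands for 1 tumour after culture, and no normal duct cells were analysed here.

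Total counts per line were 10.5 to 15.4 M (M, mega), median 12.5 M. Levels are counts per M counts (CPM) with TMM-scaled library sizes, and the floor for a line without a count was set at 3 counts, or 0.195 to 0.287 CPM of its unscaled total. As a check of the labels, the keratins KRT8, KRT18 and KRT19 and the duct factor SOX9 reached 1 CPM in all 20 lines. The duct keratin KRT7 stayed below 1 CPM in Mz-ChA-2, and the epithelial adhesion gene EPCAM stayed below it in HuH28. In Mz-ChA-2 the summed level of 4 hepatocyte markers was 595 CPM against a median of 0.587, with TTR at 469, APOA1 at 117, ALB at 9.41 and CYP3A4 at 0. The summed level of 7 biliary epithelial markers was lowest in HuH28 (331 CPM against a median of 6879). G415 was also below the median of the lines for each of the 7, with KRT8 at 104 and KRT19 at 217 CPM. The summed level of 6 fibroblast markers was highest in HuH28 (8641 CPM against a median of 82.8). Most of that sum was COL1A1 (7970.1), with COL3A1 at 588, DCN at 49.0, LUM at 28.9, PDGFRB at 5.05 and COL1A2 at 0.685. COL1A1 was also 4093 CPM in SNU-1079 and 2015 in TGBC2TKB. LUM and COL1A2 were highest in TGBC2TKB and PDGFRB in Mz-ChA-2. The part of these transcripts in the results below was not tested. In such bulk libraries, fewer cells with a transcript and less of it in each cell cannot be told apart.

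WNT proteins are lipid-modified secreted ligands that bind frizzled receptors on the cell surface. With the co-receptors LRP5 and LRP6 they stabilise beta-catenin, which then drives target genes such as AXIN2 together with TCF and LEF factors, while with ROR or RYK receptors they act on cell shape and movement without beta-catenin. SFRP proteins bind WNT ligands outside the cell, and most DKK proteins bind LRP5 and LRP6. In the biliary tree, WNT signals take part in duct growth and repair, and WNT7B and WNT10A have been described in cholangiocarcinoma tissue.

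Of the 37 members, 32 reached 1 CPM in at least 1 line, against 75.5% of all entries, and 24 reached 10 CPM, against 60.9%. WNT1, WNT2, WNT8A, WNT8B and SFRP2 did not reach 1 CPM in any of the 20 lines. Only 4 members, all of them receptors (FZD1, FZD5, FZD6 and FZD7), reached 1 CPM in all 20 lines, against 41.5% of all entries. In 13 of the 32 members, 1 line held over 50% of the CPM summed over the 20 lines, against 12.1% of all entries that reached 1 CPM. By class this was so for 6 of 15 ligands, 2 of 10 frizzleds and 5 of 7 inhibitors. A single line had 13 to 22 members at 1 CPM or more, with a median of 17. Within each class the reach varied: among frizzleds FZD10 reached 1 CPM in 2 lines and FZD9 in 5, while the ligands WNT7B and WNT3 and the inhibitor DKK1 reached it in 19.

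**Figure D1:**
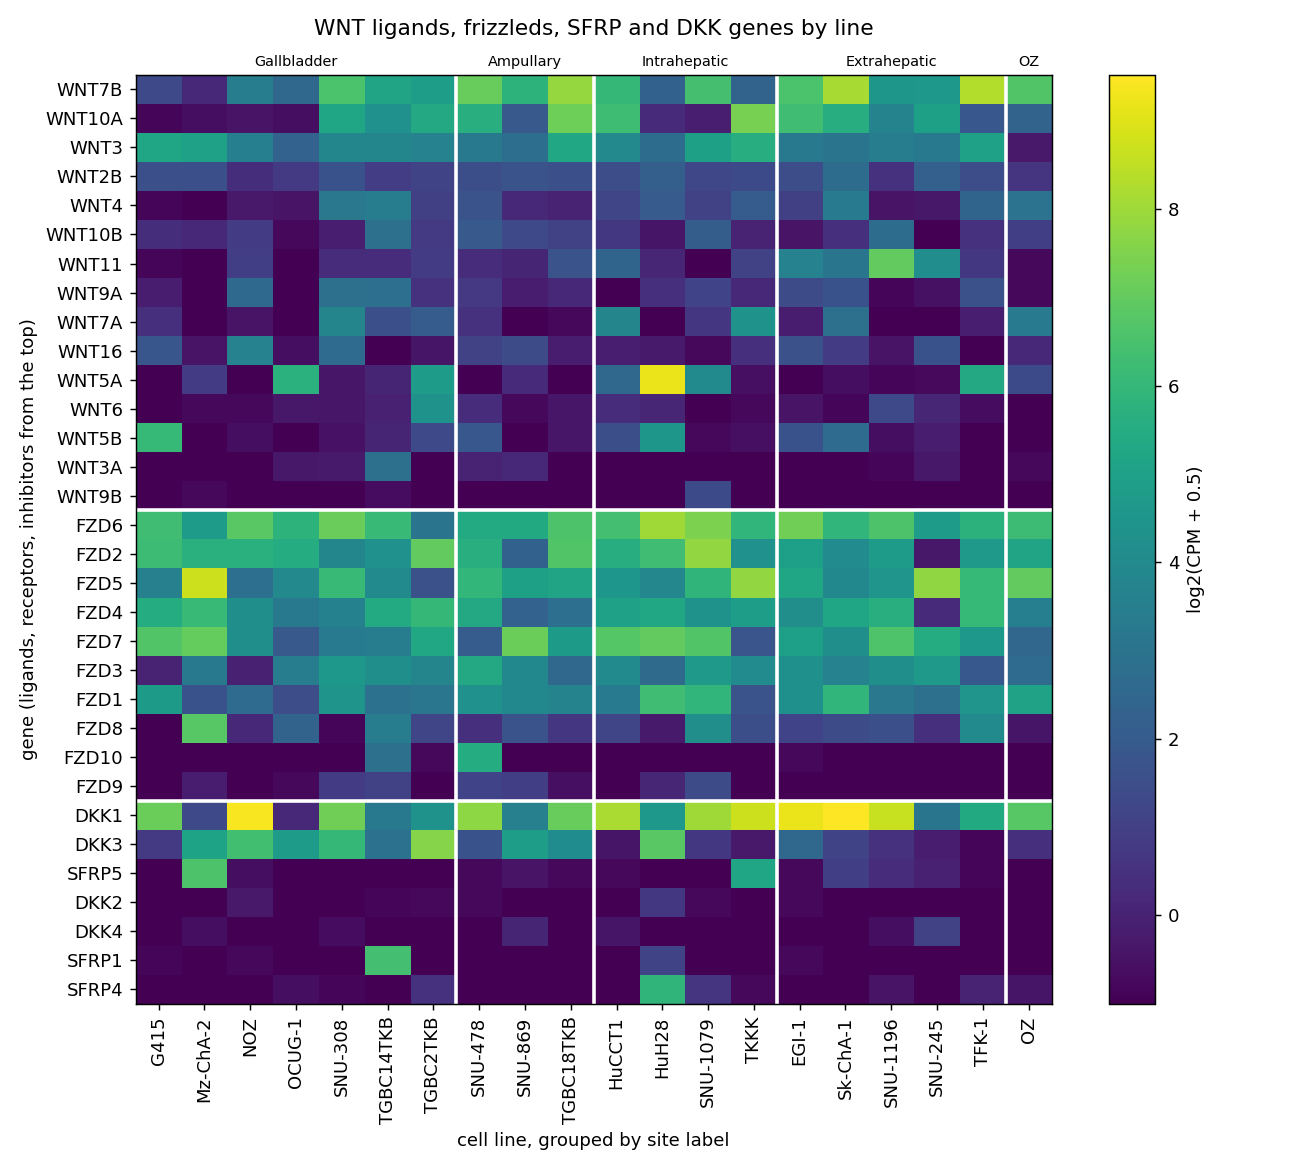
Levels of the 32 members that reached 1 CPM in at least 1 line (rows, grouped as ligands, frizzleds and inhibitors) in the 20 lines (columns, grouped by site), as log2(CPM + 0.5). FZD1, FZD5, FZD6 and FZD7 reached 1 CPM in every line, while SFRP1, SFRP4 and WNT6 exceeded 10 CPM in 1 line each.

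For orientation, the RefSeq promoter windows of 4 members whose levels are followed through the results are shown here, each from 250 bases before to 50 bases after the annotated start in GRCh38.p14. DKK1 is the inhibitor highest per kilobase in most lines, WNT10A and WNT5A are ligands followed below along the epithelial to mesenchymal order of the lines, and SFRP4 is an inhibitor that was high where WNT5A was highest. Capitals mark the TCF/LEF core CTTTGA and the E-box CACCTG, searched on both strands (as TCAAAG and CAGGTG on the other), which do not overlap each other. The windows lie at chr10:52314031-52314330 (plus strand), chr2:218880602-218880901 (plus strand), chr3:55487257-55487556 (minus strand) and chr7:37916768-37917067 (minus strand), and are written 5′ to 3′ along the strand of the gene.
DKK1: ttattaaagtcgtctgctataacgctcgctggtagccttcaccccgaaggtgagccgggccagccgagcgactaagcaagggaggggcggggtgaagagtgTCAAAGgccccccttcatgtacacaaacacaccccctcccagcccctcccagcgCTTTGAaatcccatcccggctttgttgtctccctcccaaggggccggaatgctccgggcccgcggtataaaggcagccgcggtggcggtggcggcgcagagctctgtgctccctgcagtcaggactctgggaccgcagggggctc
WNT10A: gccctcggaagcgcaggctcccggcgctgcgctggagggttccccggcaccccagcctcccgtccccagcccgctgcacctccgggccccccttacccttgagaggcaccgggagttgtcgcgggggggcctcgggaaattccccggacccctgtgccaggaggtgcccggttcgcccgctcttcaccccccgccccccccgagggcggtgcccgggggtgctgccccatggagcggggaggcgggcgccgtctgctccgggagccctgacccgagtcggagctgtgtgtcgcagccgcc
WNT5A: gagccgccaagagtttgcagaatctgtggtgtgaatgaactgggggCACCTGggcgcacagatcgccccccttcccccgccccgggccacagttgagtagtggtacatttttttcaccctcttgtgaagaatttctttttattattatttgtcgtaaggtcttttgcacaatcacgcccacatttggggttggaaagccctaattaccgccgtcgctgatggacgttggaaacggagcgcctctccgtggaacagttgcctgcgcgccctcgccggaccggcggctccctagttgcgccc
SFRP4: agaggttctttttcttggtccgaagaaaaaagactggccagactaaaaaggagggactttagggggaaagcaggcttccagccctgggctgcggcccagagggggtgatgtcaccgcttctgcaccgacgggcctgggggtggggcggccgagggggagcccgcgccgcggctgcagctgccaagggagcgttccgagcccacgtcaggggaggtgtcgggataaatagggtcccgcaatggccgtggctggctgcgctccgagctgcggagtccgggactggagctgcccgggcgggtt
Windows were available for 25 of the 37 members. The TCF/LEF core was found in the DKK1 window, with 2 matches, and in no other of the 25, or 4%, against 13.1% of 27305 promoters of the same length. The E-box was found in 6 of the 25 (24%), WNT5A among them, against 20.6% of all. An observed to expected CpG ratio of at least 0.6 was met by 21 of the 25 windows (84%), WNT5A, SFRP4, WNT10A and DKK1 included, against 49% of all promoters. These matches describe the letters only.

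Of the ligands, WNT7B reached 10 CPM in 15 lines, WNT3 in 12 and WNT10A in 11, and no other in more than 5. WNT7B, a ligand that signals through beta-catenin in several epithelia, ran from 0.622 to 312 CPM with a median of 45.0. Its extrahepatic values were 312 in TFK-1, 284 in Sk-ChA-1, 93.0 in EGI-1, 23.9 in SNU-245 and 23.2 in SNU-1196, and its ampullary values were 231 in TGBC18TKB, 133 in SNU-478 and 55.0 in SNU-869. Intrahepatic lines had 84.9 in SNU-1079, 63.3 in HuCCT1, 4.64 in TKKK and 4.28 in HuH28, gallbladder lines had 0.622 CPM at the lowest (Mz-ChA-2), 10.4 at the median and 91.9 at the highest (SNU-308), and OZ had 99.8. All 8 extrahepatic and ampullary lines were at or above 23 CPM, but the ranges of all 4 sites overlapped.

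WNT10A, a ligand needed for teeth, hair and other ectodermal organs, ran from 0.0724 to 165 CPM with a median of 16.1. Extrahepatic lines had 78.2 in EGI-1, 47.1 in Sk-ChA-1, 31.1 in SNU-245, 12.7 in SNU-1196 and 3.12 in TFK-1, and ampullary lines had 145 in TGBC18TKB, 49.3 in SNU-478 and 3.32 in SNU-869. Intrahepatic lines had 165 in TKKK, 76.0 in HuCCT1, 0.685 in HuH28 and 0.411 in SNU-1079, gallbladder lines had 0.0724 CPM at the lowest (G415), 0.236 at the median and 40.1 at the highest (TGBC2TKB), and OZ had 4.65. In 6 lines (G415, HuH28, Mz-ChA-2, NOZ, OCUG-1 and SNU-1079) WNT10A was below 1 CPM, and the other 14 ran from 3.12 CPM upward. WNT6, its close neighbour in the genome, reached 10 CPM in TGBC2TKB alone (20.4 CPM; next SNU-1196 at 1.98). The 2 genes overlap in the RefSeq annotation, so a few reads could be shared.

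WNT3, an activator of beta-catenin that maintains intestinal crypts, was present at 1 CPM or more in 19 lines, from 0.332 to 46.4 CPM with a median of 11.7. Intrahepatic lines had 46.4 in TKKK, 30.7 in SNU-1079, 15.0 in HuCCT1 and 6.17 in HuH28, extrahepatic lines had 31.5 in TFK-1, 10.3 in SNU-1196, 9.003 in EGI-1, 8.91 in SNU-245 and 7.68 in Sk-ChA-1, and ampullary lines had 37.9 in TGBC18TKB, 8.96 in SNU-478 and 6.56 in SNU-869. Gallbladder lines had 4.43 CPM at the lowest (OCUG-1), 13.7 at the median and 36.7 at the highest (G415). WNT3 thus spanned a narrower range than WNT7B or WNT10A, since 19 of 20 lines lay between 4.43 and 46.4 CPM and only OZ, at 0.332, was lower. WNT3 overlaps LRRC37A2 in the RefSeq annotation, so reads could be shared here too.

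The ligands known for signalling without beta-catenin were each high in a few lines. WNT5A, which acts through ROR2 and guides cell movement, was 595 CPM in HuH28, or 80.1% of its sum over the lines. Next came 52.3 in OCUG-1, 40.6 in TFK-1, 27.9 in TGBC2TKB and 15.6 in SNU-1079, and it stayed below 1 CPM in 12 lines. WNT5B, its closest relative, was 65.3 in G415, 23.0 in HuH28 and 5.97 in Sk-ChA-1, and was below 4 CPM in the other 17. The 2 relatives were both above 10 CPM in HuH28 only: G415, the highest line for WNT5B, had no WNT5A count.

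WNT11, which takes part in convergent extension and kidney branching, was highest in extrahepatic lines: 125 in SNU-1196, 17.3 in SNU-245, 12.1 in EGI-1, 8.06 in Sk-ChA-1 and 1.13 in TFK-1. Intrahepatic lines had 4.78 in HuCCT1, 1.57 in TKKK, 0.599 in HuH28 and 0 in SNU-1079, ampullary lines had 2.70 in TGBC18TKB, 0.760 in SNU-478 and 0.554 in SNU-869, and gallbladder lines had 0 CPM at the lowest (Mz-ChA-2), 0.754 at the median and 1.41 at the highest (NOZ). The 3 lines above 10 CPM were thus all extrahepatic, with SNU-1196 holding 69.8% of the sum over all lines, and TFK-1 overlapped the other sites.

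The other ligands above 10 CPM were confined to few lines. WNT7A, close kin of WNT7B, reached 10 CPM in TKKK (20.7), HuCCT1 (13.5) and SNU-308 (13.2), and OZ had 9.39. WNT4, a ligand of kidney and reproductive tract development, peaked at 10.2 in TGBC14TKB and 9.77 in Sk-ChA-1, and WNT16 at 12.0 in NOZ and 5.89 in SNU-308. The remaining detected ligands peaked below 10 CPM: WNT10B at 6.93 and WNT3A at 6.86 in TGBC14TKB, WNT9A at 6.92 in SNU-308, WNT2B at 6.12 in Sk-ChA-1 and WNT9B at 2.05 in SNU-1079. TGBC14TKB therefore had the highest level of WNT3A, WNT4 and WNT10B together. In the RefSeq annotation WNT2B overlaps ST7L, which ran from 8.28 to 32.2 CPM, and WNT9B overlaps LRRC37A2. Reads of these low ligands could therefore be shared. No line had a substantial level of WNT1, WNT2, WNT8A or WNT8B, whose highest values were 0.981, 0.233, 0.0831 and 0.979 CPM.

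Every line had between 5 and 10 frizzleds at 1 CPM or more. FZD6, a receptor of planar cell polarity, was abundant in nearly every line, from 7.81 to 259 CPM with a median of 72.0 and at least 10 CPM in 19 lines. Intrahepatic lines had 59.9 in TKKK, 83.7 in HuCCT1, 175 in SNU-1079 and 259 in HuH28, extrahepatic lines had 149 in EGI-1, 96.0 in SNU-1196, 59.6 in Sk-ChA-1, 53.8 in TFK-1 and 28.0 in SNU-245, and ampullary lines had 95.4 in TGBC18TKB, 42.9 in SNU-478 and 41.4 in SNU-869. Gallbladder lines had 7.81 CPM at the lowest (TGBC2TKB), 69.8 at the median and 139 at the highest (SNU-308). HuH28 was the highest line and TGBC2TKB the lowest, and the sites overlapped.

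FZD2, a receptor for WNT5A and other ligands, spanned 0.294 to 225 CPM with a median of 39.5. Extrahepatic lines had 30.3 in EGI-1, 26.7 in SNU-1196, 25.1 in TFK-1, 16.2 in Sk-ChA-1 and 0.294 in SNU-245, intrahepatic lines had 225 in SNU-1079, 77.9 in HuH28, 46.7 in HuCCT1 and 19.4 in TKKK, and ampullary lines had 99.5 in TGBC18TKB, 49.8 in SNU-478 and 4.27 in SNU-869. Gallbladder lines had 13.9 CPM at the lowest (SNU-308), 50.6 at the median and 126 at the highest (TGBC2TKB). SNU-245 and SNU-869 lay far below the other 18 lines, which were all at 13 CPM or more. FZD5, a receptor of intestinal epithelium, ran the other way in some of these lines, from 2.55 to 425 CPM: it was highest in Mz-ChA-2 (425), TKKK (222), SNU-245 (215) and OZ (125), and lowest in TGBC2TKB. The remaining intrahepatic FZD5 values were 58.9 in SNU-1079, 22.4 in HuCCT1 and 14.1 in HuH28, the remaining extrahepatic ones were 66.1 in TFK-1, 35.5 in EGI-1, 21.7 in SNU-1196 and 14.7 in Sk-ChA-1, and the ampullary ones were 61.9 in SNU-478, 35.3 in TGBC18TKB and 31.1 in SNU-869. Gallbladder lines had 2.55 CPM at the lowest (TGBC2TKB), 14.8 at the median and 425 at the highest (Mz-ChA-2).

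FZD7, a receptor of stem and progenitor cells in the gut, ran from 2.90 to 142 CPM with a median of 28.3. Ampullary lines had 142 in SNU-869, 26.0 in TGBC18TKB and 3.72 in SNU-478, intrahepatic lines had 128 in HuH28, 107 in HuCCT1, 100.0 in SNU-1079 and 2.90 in TKKK, and extrahepatic lines had 97.9 in SNU-1196, 44.7 in SNU-245, 30.6 in EGI-1, 23.9 in TFK-1 and 18.3 in Sk-ChA-1. Gallbladder lines had 3.34 CPM at the lowest (OCUG-1), 18.5 at the median and 129 at the highest (Mz-ChA-2). In 7 lines FZD7 was at 97.9 CPM or more and in 4 it was below 6, with both extremes inside the ampullary, intrahepatic and gallbladder sets. FZD1, FZD3 and FZD4 were moderate, at medians of 13.5, 13.9 and 30.3 CPM. FZD1 ranged from 2.33 to 79.0 CPM (HuH28 highest, then Sk-ChA-1 at 61.0 and SNU-1079 at 59.8). FZD3, the partner of FZD6 in planar polarity, ranged from 0.471 to 40.4 CPM (SNU-478 highest), and was below 1 CPM in NOZ and G415.

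FZD4, also the receptor for the eye ligand Norrin, ranged from 0.686 to 68.7 CPM, highest in Mz-ChA-2, TFK-1 and TGBC2TKB. Its annotation overlaps the protease gene PRSS23, which ran from 48.9 to 2670 CPM, and the levels of both followed each other over the 20 lines (Spearman rho 0.78). Without a stated strand setting for the counting, reads of FZD4 and PRSS23 cannot be told apart where they overlap. FZD8 reached 1 CPM in 13 lines, with a median of 1.80, and was highest at 109.7 in Mz-ChA-2, 17.7 in SNU-1079, 15.2 in TFK-1 and 10.6 in TGBC14TKB. FZD10 was 44.8 in SNU-478 and 6.79 in TGBC14TKB with at most 0.0822 elsewhere. FZD9 peaked at 2.22 in SNU-1079. FZD10, a receptor with little expression in adult tissues, was thus limited to SNU-478 and, at a lower level, TGBC14TKB.

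The inhibitors were dominated by DKK1, an antagonist of LRP5 and LRP6 and itself a target of beta-catenin in many cells. It ran from 0.622 to 734 CPM with a median of 137, and was at 10 CPM or more in 16 lines. Extrahepatic lines had 734 in Sk-ChA-1, 589.7 in EGI-1, 395 in SNU-1196, 41.4 in TFK-1 and 8.13 in SNU-245, intrahepatic lines had 415.5 in TKKK, 291 in HuCCT1, 257 in SNU-1079 and 23.7 in HuH28, and ampullary lines had 215 in SNU-478, 134 in TGBC18TKB and 11.3 in SNU-869. Gallbladder lines had 0.622 CPM at the lowest (OCUG-1), 19.8 at the median and 683 at the highest (NOZ), and OZ had 110.0. DKK1 was thus above 10 CPM in most lines of each site, and both the extrahepatic and the gallbladder set also held lines below 10 CPM.

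DKK3, a divergent member of the family that does not act on LRP5 and LRP6 in the same way, ran from 0.0708 to 197 CPM with a median of 3.90. Gallbladder lines had 1.23 CPM at the lowest (G415), 33.7 at the median and 197 at the highest (TGBC2TKB). Extrahepatic lines had 5.18 in EGI-1, 1.72 in Sk-ChA-1, 0.912 in SNU-1196, 0.392 in SNU-245 and 0.0708 in TFK-1, intrahepatic lines had 114 in HuH28, 1.15 in SNU-1079, 0.331 in TKKK and 0.256 in HuCCT1, and ampullary lines had 28.7 in SNU-869, 16.7 in TGBC18TKB and 2.62 in SNU-478. No extrahepatic line exceeded 5.18 CPM, while 5 of 7 gallbladder lines were above 27 CPM, and the lowest gallbladder line, G415, overlapped the extrahepatic range.

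Each of the 3 SFRP genes that reached 1 CPM was above 10 CPM in 1 or 2 lines. SFRP1, which sequesters WNT ligands in many epithelia, was 82.9 CPM in TGBC14TKB, or 97.7% of its sum, and 1.71 in HuH28. SFRP4, linked to stroma and bone, was 58.1 in HuH28 (94.8% of its sum) and below 1 CPM in the other 19 lines. SFRP5, close kin of SFRP1, was 96.7 in Mz-ChA-2, 36.8 in TKKK and 1.42 in Sk-ChA-1 and below 1 in the other 17. Only traces of the 2 remaining LRP antagonists were seen, with DKK2 at 1.11 in HuH28 and DKK4 at 1.57 in SNU-245.

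To compare genes with each other, CPM was divided by the length of the longest matching transcript in kilobases, an approximation that takes no account of which isoform was used. On this scale WNT7B was the highest ligand in 9 lines, WNT10A in 5, WNT5A in 2 and WNT11, WNT16, WNT3 and WNT5B in 1 each. The leading ligand held 26.9% to 87.4% of the summed ligand level per kilobase, with a median of 62.1%. Among receptors FZD6 led in 8 lines, FZD2 in 6, and FZD5 and FZD7 in 3 each, with 24.4% to 71.3% of the sum. Among inhibitors DKK1 led in 14 lines, DKK3 in 4 (HuH28, OCUG-1, SNU-869 and TGBC2TKB), SFRP1 in TGBC14TKB and SFRP5 in Mz-ChA-2, with 56.1% to 99.7%. The summed ligand level per kilobase differed more between lines than that of the receptors, at 10.8 (Mz-ChA-2) to 130.5 (TGBC18TKB) CPM per kilobase against 42.2 (OCUG-1) to 205.9 (SNU-1079), and that of the inhibitors ran from 6.71 (SNU-245) to 412 (NOZ).

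**Figure D2:**
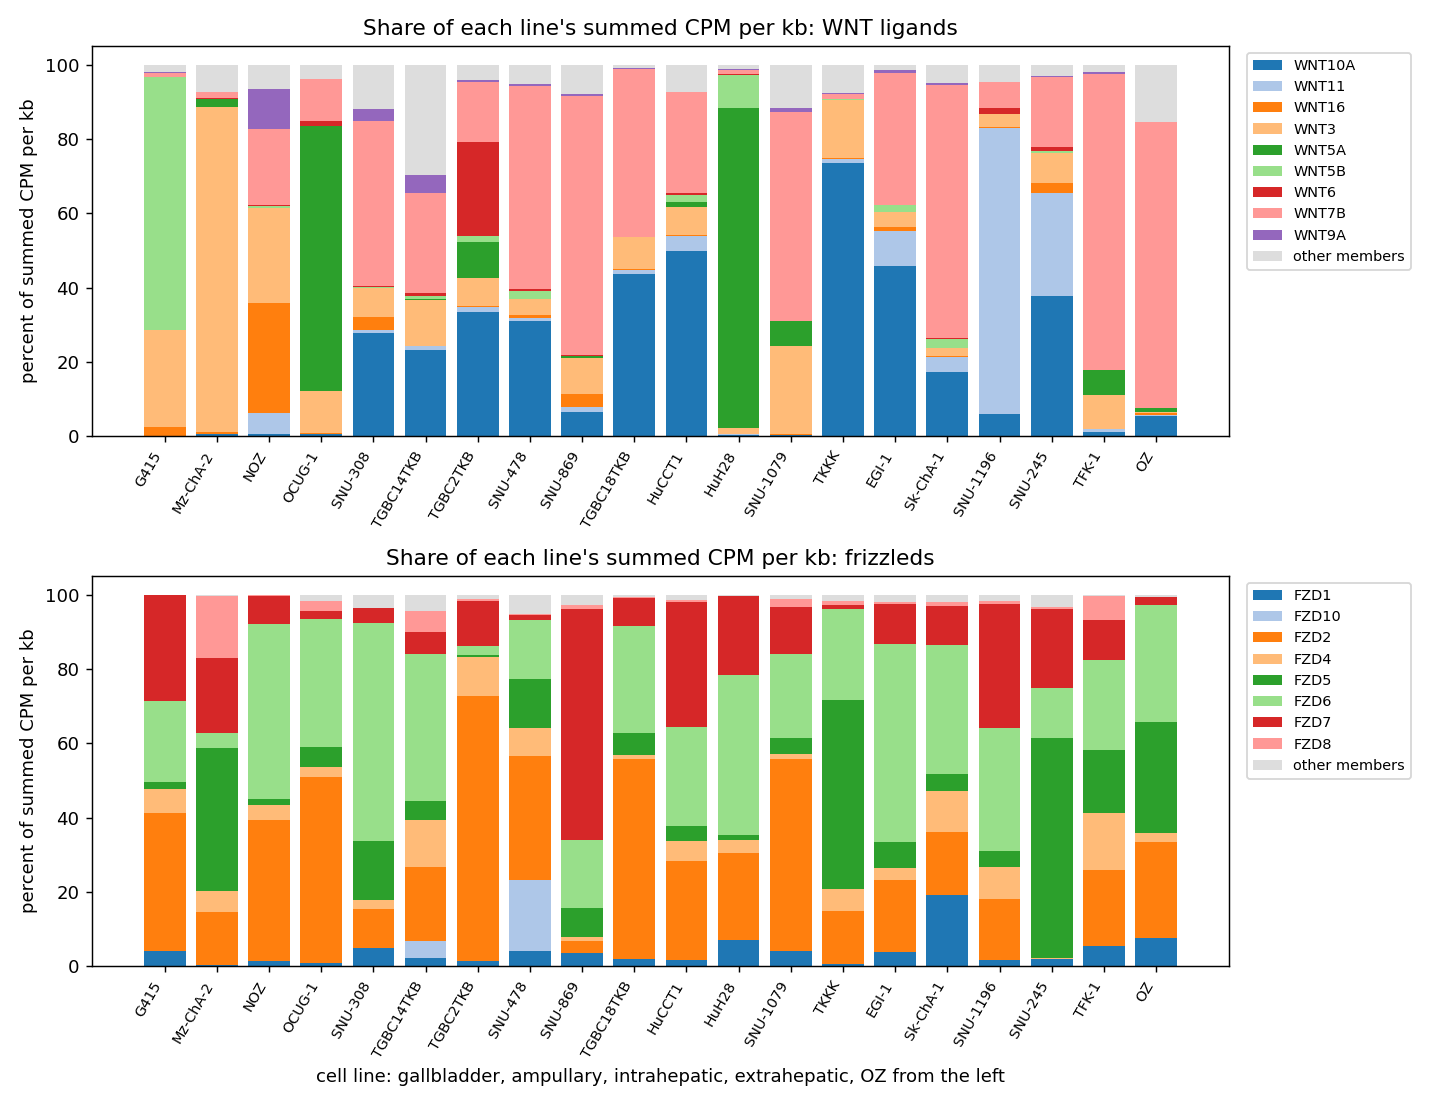
Percent of the summed level (CPM per kilobase of the longest transcript) held by each ligand (upper panel) and each frizzled (lower panel) in each of the 20 lines (bars). Colours mark members with at least 10% in some line and grey the rest. WNT7B or WNT10A led in 14 of the 20 lines, and the leading frizzled was FZD6, FZD2, FZD5 or FZD7 in every line.

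The site comparison asked whether any anatomical origin carried its own set of WNT genes. Each site was set against the unweighted mean of the other 3 in edgeR's quasi-likelihood test over 19 lines and 16615 genes, with Benjamini-Hochberg adjustment over all of them. Of the 26 members that passed the count filter, 0 were called at an adjusted p under 0.05 in the gallbladder contrast (0% of all genes called), 0 in the ampullary contrast (0.00602%), 0 in the intrahepatic contrast (0%), 0 in the extrahepatic contrast (0%) and 0 in the joint test of all sites (0.00602%). At an unadjusted p under 0.05 the members were 3 for gallbladder, 1 for ampullary, 3 for intrahepatic, 3 for extrahepatic and 4 in the joint test, against 12.3%, 5.25%, 9.47%, 7.01% and 10.7% of all genes. The median log2 difference of the members was 0.11 for gallbladder (0.11 over all genes), −0.55 for ampullary (−0.11), 0.55 for intrahepatic (0.04) and −0.02 for extrahepatic (−0.02). These medians moved when 1 line was left out. The ampullary one ran from −1.01 (without SNU-478) to −0.19 (without Sk-ChA-1). The intrahepatic one ran from 0.12 (without TKKK) to 0.77 (without Mz-ChA-2), and the gallbladder one from −0.20 (without Mz-ChA-2) to 0.45 (without SNU-478). The count filter was applied anew each time, so the members behind a median could change too. Without SNU-478 there were 29 members and without Sk-ChA-1 25, against 26 with all lines. How much of each shift came from this was not tested. DESeq2 called 0 members for gallbladder (2.3% of all genes called), 0 for ampullary (0.8%) and 0 for intrahepatic lines (1.61%). Of the members named below, it gave no adjusted p for SFRP5 in the gallbladder contrast. The same held for SFRP4 and WNT5A in the ampullary and intrahepatic contrasts, so none of these could be called there. In limma-trend 0 were called in any of the 5 (0.00602% of all genes or fewer for a single site and 0.012% jointly).

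In extrahepatic lines WNT11 stood at 4.84 (SE 1.11, adjusted p = 0.281) on the log2 scale against the other sites, FZD9 at −6.21 (SE 2.03, adjusted p = 0.544) and DKK3 at −4.17 (SE 1.54, adjusted p = 0.572). WNT11 also had the smallest p of the members in the joint test (adjusted p = 0.227). DESeq2, run on the same counts, called 2 members in the extrahepatic contrast (1.13% of all genes called): WNT11 at 4.85 (adjusted p = 0.00103) and DKK3 at −4.17 (adjusted p = 0.0171). It also called 1 member, WNT11, in the joint test (1.7% of all genes called). Without SNU-1196 the edgeR value of WNT11 was 3.10 (adjusted p = 0.605), and without HuH28 that of DKK3 was −2.29 (adjusted p = 0.760). FZD9 had no count in any of the 5 extrahepatic lines and is at least 3.23-fold below the mean of the other sites (0.762 CPM) when each is set at the floor of 3 counts per line. Its absence was not particular to this site: FZD9 had no count in 11 of the 20 lines, gallbladder and intrahepatic ones among them. It peaked at 2.22 CPM, or 27 counts, so this difference lies near the floor.

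In gallbladder lines the 3 members of smallest p were DKK3 at 2.69 (SE 1.08, adjusted p = 0.329), WNT11 at −2.77 (SE 1.13, adjusted p = 0.335) and SFRP5 at 3.91 (SE 1.84, adjusted p = 0.402). Without HuH28 the DKK3 difference was 4.54 (adjusted p = 0.0957). The SFRP5 value rested on Mz-ChA-2, since the other 6 gallbladder lines had at most 0.157 CPM, and Mz-ChA-2 is the line with the hepatocyte transcripts given above. It changed sign with the tool, to −4.79 in DESeq2 and −0.13 in limma-trend.

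In intrahepatic lines they were SFRP4 at 7.87 (SE 1.78, adjusted p = 0.148), WNT5A at 5.77 (SE 1.90, adjusted p = 0.289) and FZD6 at 1.11 (SE 0.52, adjusted p = 0.525). The intrahepatic values behind them were 0 in HuCCT1, 0.0828 in TKKK, 0.986 in SNU-1079 and 58.1 in HuH28 for SFRP4 and 0.166 in TKKK, 5.38 in HuCCT1, 15.6 in SNU-1079 and 595 in HuH28 for WNT5A, in CPM. HuH28 was thus the only intrahepatic line with SFRP4 above 1 CPM. Without HuH28 the WNT5A difference was 1.30 (adjusted p = 0.986), that of FZD6 was 0.64, and SFRP4 no longer passed the filter.

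In ampullary lines FZD9 stood at 2.83 (SE 1.28, adjusted p = 0.923), with values of 1.7 in SNU-478, 1.42 in SNU-869 and 0.180 in TGBC18TKB, SFRP4 at −6.22 (SE 2.99, adjusted p = 0.923) and WNT5A at −6.64 (SE 3.41, adjusted p = 0.923). The 3 ampullary lines had no SFRP4 count, which at the floor of 3 counts per line is at least 19.2-fold below the mean of the other sites. That mean came almost wholly from HuH28. WNT5A values in CPM were 0.712 in SNU-869, 0 in SNU-478 and 0 in TGBC18TKB, near those of most extrahepatic lines. The WNT5A difference ran from −11.28 without SNU-869 to −4.45 without TFK-1, and was −2.89 with repository as a covariate and −3.02 in limma-trend.

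**Figure D3:**
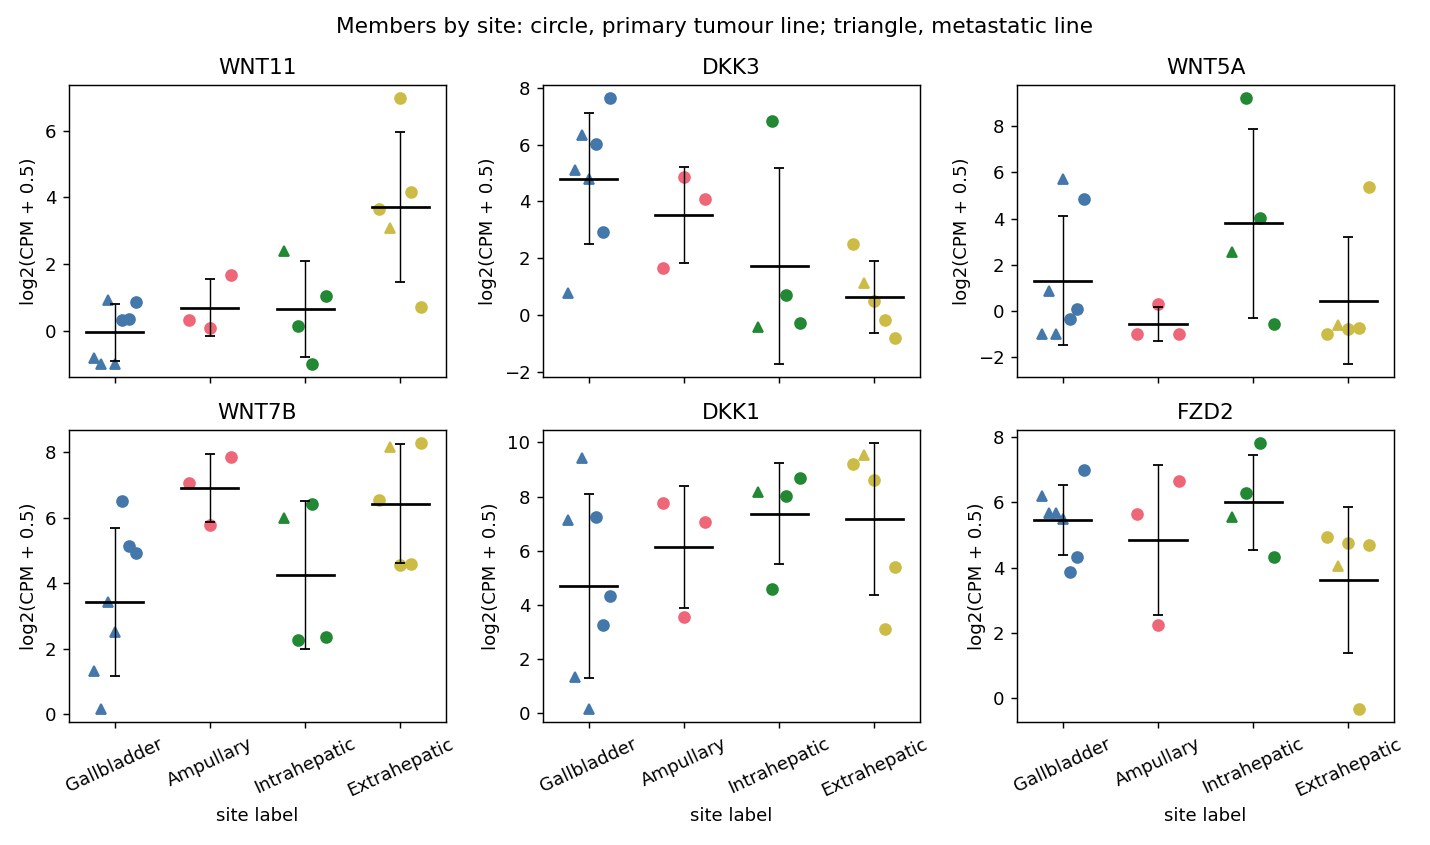
Levels of WNT11, DKK3, WNT5A, WNT7B, DKK1 and FZD2 as log2(CPM + 0.5) in the 19 lines with 1 site label, by site. Circles are primary and triangles metastatic lines, the horizontal line is the mean of the site and the bar its SD. WNT11 was above 10 CPM in 3 extrahepatic lines only, and no extrahepatic line had more than 5.18 CPM of DKK3.

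Metastatic lines (6 from ascites, 1 from liver) were set against the 13 primary lines in the same way. Of 22 members among 14843 genes tested, 0 were called by edgeR (0% of all genes called), by DESeq2 (1.22%) or by limma-trend (0%), and 0 had an unadjusted p under 0.05 in edgeR, against 7.73% of all genes. The median log2 difference of the members, metastatic minus primary, was −0.19 against −0.02 over all genes, and ran from −0.44 (without Sk-ChA-1) to −0.0079 (without OCUG-1) with 1 line left out. Smallest in p were FZD3 at −1.19 (SE 0.59, adjusted p = 0.651), FZD8 at 1.94 (SE 1.12, adjusted p = 0.698) and WNT11 at −2.63 (SE 1.53, adjusted p = 0.701). FZD8 was 109.7 CPM in Mz-ChA-2 and at most 4.58 in the other 6 metastatic lines, and without Mz-ChA-2 its difference was −1.52. WNT11 likewise moved to −0.69 without the primary line SNU-1196, and to −0.31 with site as a covariate. Mz-ChA-2 is also the line with the hepatocyte transcripts given above, whose part in the FZD8 value was not tested. Origin is not spread evenly over sites, since 4 of the 7 metastatic lines are gallbladder lines.

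Within the gallbladder lines, which hold 4 metastatic and 3 primary lines, 5 of the 28 members at 1 CPM or more were lower in every metastatic line than in any primary line, against 4.92% of all such entries, and 0 were higher in every one, against 2.64%. WNT10A, the ligand that was near-absent in part of the lines, ran from 0.0724 to 0.236 CPM in the metastatic and 19.6 to 40.1 in the primary lines. WNT7B, the leading ligand of 9 lines, ran from 0.622 to 10.4 CPM in the metastatic and 29.7 to 91.9 in the primary lines. WNT7A ran from 0 to 0.869 CPM in the metastatic and 2.45 to 13.2 in the primary lines, and WNT4 from 0 to 0.314 CPM in the metastatic and 1.48 to 10.2 in the primary lines. The receptor FZD3 ran from 0.471 to 10.3 CPM in the metastatic and 13.3 to 23.7 in the primary lines. This split was noticed after the values were seen and is given with no test. It does not extend to the other sites: the metastatic lines HuCCT1 and Sk-ChA-1 had 76.0 and 47.1 CPM of WNT10A. All 4 metastatic gallbladder lines also had an epithelial minus mesenchymal score below 0, as did the primary line TGBC2TKB, which had 40.1 CPM of WNT10A.

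The lines differ along an order from epithelial to mesenchymal transcripts, scored as the mean centred log2 level of 24 epithelial genes minus that of 22 mesenchymal genes. HuH28 scored −12.09, SNU-245 scored 5.02, and none of the WNT members is in either list. In edgeR's fit along it, with a strict count filter for 1 group, 11 members were among 11938 genes tested and 0 were called (4.88% of all genes called), with 2 at an unadjusted p under 0.05 against 20.1% of all genes. Slopes in log2 units per score unit were −0.19 (SE 0.07, adjusted p = 0.151) for FZD2, 0.29 (SE 0.12, adjusted p = 0.195) for WNT7B and −0.12 (SE 0.06, adjusted p = 0.250) for FZD1. Without HuH28 the slope of FZD1 was −0.062. DESeq2 called 2 of the 11 (9.93% of all genes called), WNT7B rising toward the epithelial end (adjusted p = 0.00906) and FZD2 toward the mesenchymal end (adjusted p = 0.0406). limma-trend called 0 (6.38% of all genes called).

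That filter removed the ligands found in few lines. With no filter at all, 4 of 37 members were called (8.96% of all genes called), DKK2 and WNT1 with few counts among them beside SFRP4 and WNT5A. The fit was also repeated with a looser one, at least 10 counts in at least 3 lines, chosen after the data had been seen. Of 26 members among 16695 genes, 2 were then called (7.7% of all genes called), both higher toward the mesenchymal end: SFRP4 at −0.51 (SE 0.08, adjusted p = 0.000896) and WNT5A at −0.40 (SE 0.11, adjusted p = 0.0232). limma-trend with the same filter called 3 (8.1% of all genes called): SFRP4, WNT5A and, higher toward the epithelial end, WNT10A at 0.47 (SE 0.13, adjusted p = 0.0295). In edgeR with that filter WNT10A was not called, at 0.34 (SE 0.15, adjusted p = 0.193). SFRP4 reached 10 counts only in HuH28, SNU-1079 and TGBC2TKB, all with a score below 0, so it passed that filter only through lines where it was high, its direction was fixed by the filter, and its p supports nothing. WNT5A reached 10 counts in lines on both sides of 0, TFK-1 (score 3.39) among them. Both were highest in HuH28, the line of lowest score, whose marker levels are given above. Without HuH28, 0 of 25 members were called in edgeR (4.07% of all genes called): WNT5A stood at −0.26 (SE 0.19, adjusted p = 0.494) and SFRP4 no longer passed the filter. WNT10A stood at 0.30 (SE 0.18, adjusted p = 0.402) in that fit. The member of smallest p there was WNT11, at 0.64 (SE 0.20, adjusted p = 0.0769), higher toward the epithelial end.

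**Figure D4:**
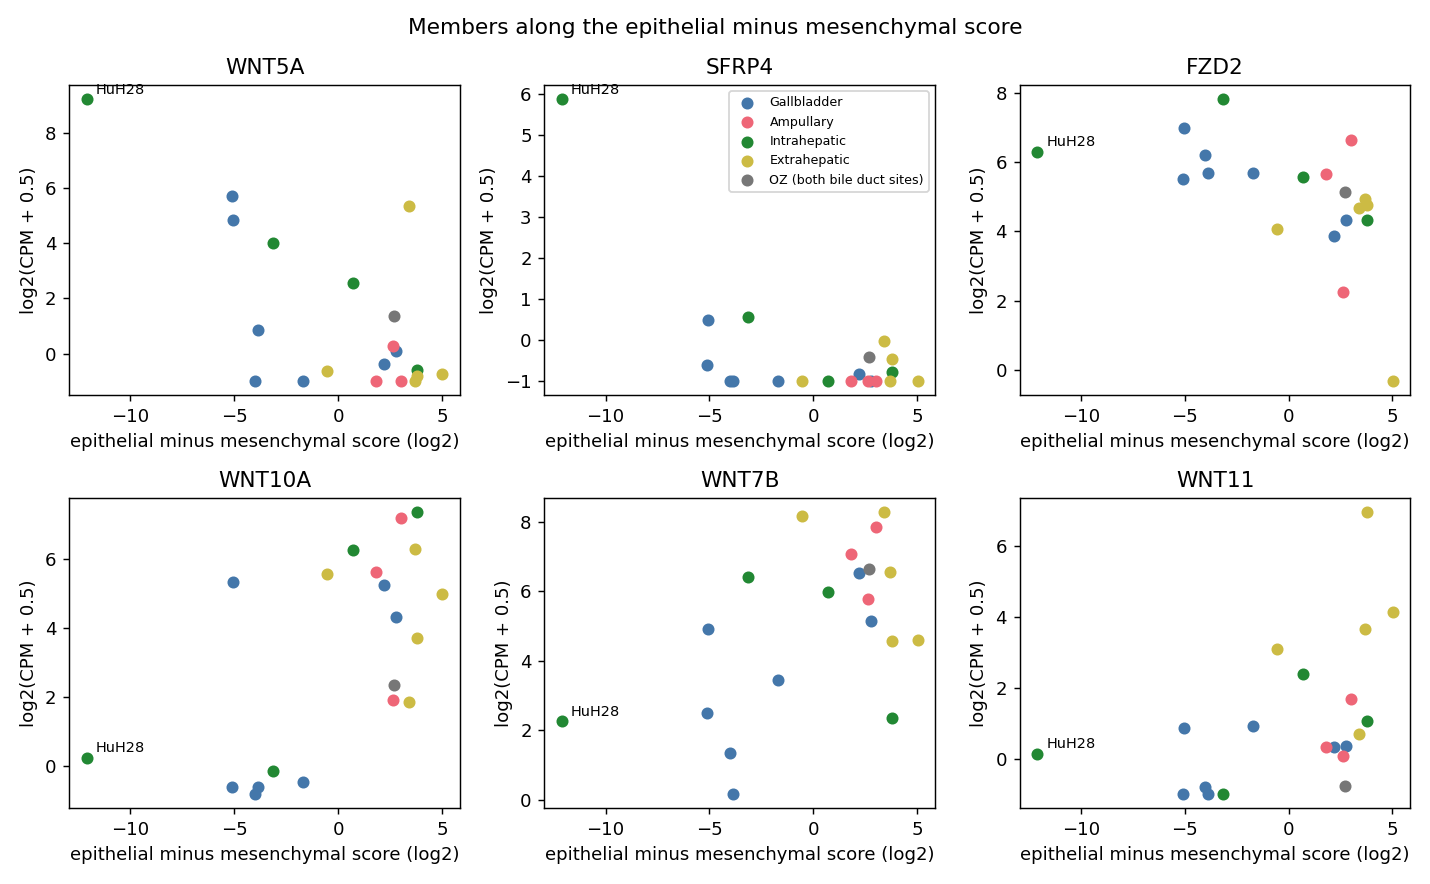
Levels of WNT5A, SFRP4, FZD2, WNT10A, WNT7B and WNT11 as log2(CPM + 0.5) against the epithelial minus mesenchymal score (log2 units) in the 20 lines, with HuH28 named. WNT5A and SFRP4 were highest in HuH28, at a score of −12.09, and WNT10A was below 1 CPM in 6 lines, all with a score below 0.

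Whether any member followed the transcript level of pathway targets was asked with a score over 8 feedback targets of beta-catenin (AXIN2, NKD1, LGR5, ZNRF3, RNF43, NOTUM, SP5 and TNFRSF19). The score was highest in SNU-245 (3.83), SNU-1196 (3.38) and SNU-869 (2.82), and lowest in OCUG-1 (−3.09) and G415 (−2.85). AXIN2 itself was 235 in SNU-245, 184 in SNU-869 and 179 in SNU-1196 CPM, against a median of 14.6. Of 11 members among 11966 genes, 0 were called by edgeR (0.00836% of all genes called), by DESeq2 (1.54%) or by limma-trend (0%), and 0 had an unadjusted p under 0.05 in edgeR, against 10.6% of all genes. The smallest p values belonged to FZD2 at −0.33 (SE 0.26, adjusted p = 0.671), FZD5 at 0.26 (SE 0.24, adjusted p = 0.732) and FZD3 at 0.16 (SE 0.16, adjusted p = 0.766). With 1 line left out the slope of FZD2 ran from −0.43 (without OCUG-1) to −0.14 (without SNU-245), and that of FZD5 from 0.12 (without SNU-245) to 0.45 (without Mz-ChA-2), while limma-trend gave −0.56 for FZD2. With the looser filter 0 of 26 members were called (0.126% of all genes called), and WNT11 stood at 0.98 (SE 0.27, adjusted p = 0.146). The 3 lines of highest score differed in their ligands and inhibitors: SNU-1196 had 125 CPM of WNT11 and 395 of DKK1, whereas SNU-245 had 8.13 and SNU-869 11.3 of DKK1.

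Of 53 other genes of the pathway, 45 entered the site comparisons and 40 the comparison by origin, and 0 were called in any of these. Extrahepatic lines had RSPO3, an amplifier of WNT signals that protects frizzleds from degradation, at 7.40 (SE 1.94, adjusted p = 0.366) and its receptor LGR5 at 4.31 (SE 1.29, adjusted p = 0.463). RSPO3 was present in 4 lines only, at 326 in TFK-1, 172 in EGI-1, 127 in HuH28 and 42.2 in SNU-1079 CPM. In intrahepatic lines ROR2, the WNT5A co-receptor, stood at 8.46 (SE 2.19, adjusted p = 0.164) and APC2 at 3.11 (SE 0.78, adjusted p = 0.164). ROR2 was 169 CPM in HuH28, with no count in the other 3 intrahepatic lines, so the site value was that line alone, and without it the fitted difference was −3.62 (adjusted p = 1.00). APC2 was 1.63 without SNU-1079, and LGR5 in extrahepatic lines 2.20 without SNU-245. Outside the intrahepatic lines ROR2 exceeded 10 CPM in TGBC2TKB only (12.2). HuH28 and TGBC2TKB also had WNT5A above 10 CPM, and across the 20 lines WNT5A and ROR2 had a Spearman rho of 0.67, a pair chosen after its values were seen.

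In ampullary lines LRP6 was at 4.03 (SE 0.85, adjusted p = 0.243), and DVL2 was at −0.96 (SE 0.37, adjusted p = 0.919). LRP6 was 4552 in SNU-478, 68.0 in SNU-869 and 38.0 in TGBC18TKB CPM, against a median of 61.3 over all lines, and without SNU-478 its difference was −0.81 (adjusted p = 1.00). SNU-478 was also the line highest in FZD10 and FZD3. Gallbladder lines had ZNRF3, an enzyme that removes frizzleds from the surface, at −1.60 (SE 0.43, adjusted p = 0.215) and the nuclear adaptor PYGO1 at 5.25 (SE 1.47, adjusted p = 0.222). PYGO1 reached 1 CPM in TGBC14TKB (20.0), Mz-ChA-2 (3.66) and SNU-308 (1.23) only, all gallbladder lines. It thus passed the filter only through lines where it was high, its direction was fixed by the filter, and its p supports nothing. Metastatic lines had KREMEN1, a receptor for DKK1, at −4.11 (SE 0.95, adjusted p = 0.273) and ZNRF3 at −1.37 (SE 0.46, adjusted p = 0.461). KREMEN1 was called without OZ, at −5.80 (adjusted p = 0.0405). At an unadjusted p under 0.05, by origin 0 of the 40 pathway genes were higher and 7 lower in the metastatic lines (7.73% of all genes in either direction). Of 45, 6 were higher and 0 lower in extrahepatic lines (7.01%), 3 higher, PYGO1 among them, and 5 lower in gallbladder lines (12.3%), 4 higher and 2 lower in ampullary lines (5.25%), and 5 higher and 1 lower in intrahepatic lines (9.47%). Along the epithelial minus mesenchymal score 1 of 32 pathway genes was called, against 4.88% of all genes, the frizzled effector DVL2 at −0.10 (SE 0.02, adjusted p = 0.0140), and AXIN1 followed at 0.10 (SE 0.03, adjusted p = 0.0665). The DVL2 call was lost without HuH28 (adjusted p = 0.148), and AXIN1 was called without Mz-ChA-2 (adjusted p = 0.0433). Along the feedback target score 0 of 29 were called, with APC at −0.29 (SE 0.07, adjusted p = 0.156) and TCF7 at 0.40 (SE 0.11, adjusted p = 0.190) the smallest in p.

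Members were also compared with each other over the 20 lines, as a description. Among the 16 members at 10 CPM or more in at least 3 lines there were 120 pairs, with a median Spearman rho of 0.025 and 90% of pairs between −0.34 and 0.45. The highest were WNT10A with WNT11 (0.68), DKK1 with FZD6 (0.53), DKK1 with WNT11 (0.49), WNT10A with WNT7B (0.49) and WNT7B with FZD1 (0.48). The lowest were DKK1 with WNT5A (−0.50), WNT11 with WNT5A (−0.46) and WNT7A with FZD7 (−0.45). For neighbouring ligand genes, rho was 0.38 for WNT6 and WNT10A, 0.30 for WNT3 and WNT9B, 0.30 for WNT1 and WNT10B and 0.016 for WNT3A and WNT9A. Pearson r on log2 levels was 0.37, 0.25, 0.53 and 0.25 in the same order. Each of these pairs holds a gene outside the 16 members, so the 120 pairs are no like reference for them. WNT9B had no count in 17 lines, WNT3A in 12 and WNT1 in 10, and WNT6 reached 10 CPM in 1 line. Such values near the floor cannot show whether neighbours vary together. All pairs share the same 20 libraries and their depth.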

How the data were processed

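The deposited table holds raw read counts per gene for 20 lines, whole numbers not normalized by the authors. The submitters' processing notes name Trimmomatic, TopHat2 2.0.8, Picard 1.69 and featureCounts, and hg19 (strand setting and annotation release: not given in the sources used here). Of 24222 entries, 23204 took symbols from the RefSeq gene table and 348 from GENCODE; the remaining 670 held 1.53% of counts. Promoters come from RefSeq (GRCh38.p14), used only for sequence.

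The model was edgeR's robust quasi-likelihood fit (version 4.0.16, R 4.3.3) with TMM and filterByExpr, two-sided, and a gene was called when its p, adjusted by Benjamini-Hochberg over all genes, was under 0.05. SE is the log2 change divided by the root of F. Score lists were left out of the genes tested along them. Alternatives were DESeq2 1.42.0, limma-trend (limma 3.58.1, prior count 2), RLE scaling, no filter, covariates for repository, origin or site, and leaving out each line. The looser filter was added after seeing the data. The fits were also run on simulated data with planted changes. Their recovery is not given here, so the counts of 0 called come with no measure of how small a change could be found. Floors of 3 counts cover counting error only.

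Members and gene lists were chosen with earlier results of these data known. Named were members at 10 CPM or more, called members, or else the 3 of smallest p per comparison, and 2 pathway genes. Replicate numbers follow deposition order and pair nothing. No sequencing batch is labelled. The repository that supplied a line was used as a covariate, with DSMZ and Zurich Uni. merged into 1 level, and it does not stand for a sequencing batch. All lines from KCLB are primary, so repository and origin are not independent. Separate cultures are not stated beyond 1 library per line.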

Additional observations from a re-analysis of the deposited data

Results flagged for a closer look

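In 65 combinations of a member and a site of 4 to 7 lines, 14 had a line far from the others on the scale of log2(CPM + 0.5), by the gap to its nearest neighbour as a share of the whole range. Chance gives about 1 in 20, and combinations with most lines near 0 meet it easily.

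Among gallbladder lines, TGBC14TKB stood apart for SFRP1 (82.9 CPM, next NOZ at 0.0786) and FZD10 (6.79, next 0.0822). Mz-ChA-2 did so for SFRP5 (96.7, next 0.157), G415 for WNT5B (65.3, next 1.97) and TGBC2TKB for WNT6 (20.4, next 0.490). TGBC14TKB thus held both an inhibitor and a receptor that were almost absent from the other gallbladder lines.

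Among intrahepatic lines, HuH28 was highest for DKK3 (113.6 CPM, next 1.15) and SFRP1 (1.71, with no count in the other 3), and lowest for DKK1 (23.7, next SNU-1079 at 257). TKKK was highest for SFRP5 (36.8, next 0.0853) and lowest for FZD7 (2.90, while the other 3 had 99.98 or more). In HuH28 the order of the 2 DKK genes was the reverse of that in the other intrahepatic lines, where DKK1 was 257 CPM or more and DKK3 at most 1.15.

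Among extrahepatic lines, TFK-1 was highest for WNT5A (40.6 CPM, next 0.149) and WNT3 (31.5, next 10.3), and Sk-ChA-1 for WNT7A (6.94, next 0.425). SNU-245 was lowest for FZD2 (0.294, next 16.2). What sets these lines apart was not tested.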

How the results depend on the processing

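The 21 named differences and slopes of members kept their direction and side of the threshold in 534 of 546 alternatives, became called in 4 and changed sign in 8. All 21 were uncalled in the main fit and size was not part of this count, so it does not measure stability of size. WNT5A in intrahepatic lines counted as kept although it fell from 5.77 to 1.30 without HuH28. So did WNT11 by origin, which moved from −2.63 to −0.69 without SNU-1196. An alternative without an adjusted p was counted as not called, which says nothing of the threshold. This was so in DESeq2 for SFRP4 and WNT5A in the intrahepatic and ampullary contrasts. SFRP5 in gallbladder lines turned to −4.79 with DESeq2, −0.13 with limma-trend and −2.48 with origin as a covariate. FZD8 by origin turned to −1.50 with DESeq2, −0.17 with limma-trend and −1.52 without Mz-ChA-2. The comparison of ascites lines with primary lines is that same fit, and it is counted under both names among the 546. With 1 line left out FZD8 ranged from −1.52 to 2.36. The slope of FZD3 along the feedback target score turned to −0.045 with repository as a covariate. The cause was not tested. The number of members called rose with DESeq2 to 2 in the extrahepatic contrast, 1 in the joint test of sites and 2 along the epithelial minus mesenchymal score. Along that score it was 4 with no filter on low counts, 2 with the looser filter and 3 with that filter in limma-trend. With each line left out in turn it ranged from 0 to 0 in every contrast and along both scores. With repository as a covariate it was 0 throughout. Members with 1 line above 75% of their sum, in place of 50%, were 6.

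Counts over all genes moved more. DESeq2 called 382 genes in the gallbladder contrast, 133 in the ampullary, 267 in the intrahepatic, 188 in the extrahepatic, 283 in the joint test and 181 by origin, where edgeR called 1 or none. Along the epithelial minus mesenchymal score DESeq2 called 1185 genes and edgeR 583, or 72 with site as a covariate, and along the feedback target score 184 against 1. No paired analysis was possible because the lines are separate tumours whose replicate numbers follow deposition order only. Members with few counts are limited by depth: at 1 CPM the shallowest library holds about 10.5 reads.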

Other observations

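Over all 20 lines, WNT10A reached 1 CPM in 12 of the 12 lines with an epithelial minus mesenchymal score above 0 and in 2 of the 8 below it (Sk-ChA-1 and TGBC2TKB). At 10 CPM the same counts for WNT10A were 9 of 12 and 2 of 8. WNT5A reached 1 CPM in 3 of the 12 lines above 0 and in 5 of the 8 below it, and 10 CPM in 1 (TFK-1) and 4. These counts were made after the values were seen and have no test. TFK-1 and TGBC2TKB were the lines with both ligands above 1 CPM besides HuCCT1 and OZ.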
